A study of Homo sapiens with 36 samples.

Results

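The comparison set the mRNA found under single ribosomes (the 80S or monosome fraction) against the mRNA found at the small ribosomal subunit (the 40S fraction) in unmodified (WT) HUES6 cells, an established human embryonic stem cell line. It used 6 of the 36 libraries of the study, 3 from WT 80S and 3 from WT 40S, with 1 pair of fractions from each of 3 cultures. Transcripts were kept when they reached 10 TPM in at least 3 of the 6 libraries, which left 5055 of 223367 Ensembl transcript IDs. TPM is an abundance per transcript length, scaled so that every library sums to 1000000.

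The study prepared 6 samples from each culture on a polysome gradient, where RNA settles according to how many ribosomes it carries. They were Input, taken before fractionation, then 40S, 80S, disome, Polysome1 and, deepest, Polysome2. There were 2 genotypes with 3 cultures each, WT and a knockout of the RNA-binding protein RBPMS (KO), both grown in FTDA medium. All cultures, WT included, received cycloheximide at 100 ng/ml for 5 min to hold ribosomes in place. Every library was made from the same amount of RNA, with a stranded mRNA kit and paired reads of 75 nt, per the labels' protocols. Whether cultures of a genotype were separate clones or grown on separate days is not in the labels. The p-values therefore measure only the spread between these samples, which may be technical.

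In the cell, a 40S subunit carrying initiation factors binds near the 5' end of an mRNA and scans to the start codon, where the large subunit joins to form an 80S ribosome. RNA at the 40S position of a gradient is therefore bound to initiating subunits or sits in other light particles, while RNA at the 80S position carries 1 ribosome. Further ribosomes move an mRNA into the disome and polysome fractions. Light gradient fractions can also hold RNA that is not being translated, and a gradient alone does not separate these forms.

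The deposited table pairs no transcript ID with a gene, and the gene table at hand held 59792 genes, of which 0 had an Ensembl ID. Gene names, gene groups and the markers of pluripotent cells were therefore not analysed here, and neither the cell type nor the loss of RBPMS was checked. Transcript coordinates were not used here either. The results are given for sets of transcripts and for 4 IDs. Because every library has the same total, a TPM value gives the make-up of a fraction and not how much RNA it held. In such bulk samples, fewer cells with a transcript and less of it per cell cannot be told apart.

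The row filter was passed in several ways. At least 10 TPM was reached in all 6 libraries by 1171 transcripts (23.2%), in the 80S libraries alone by 1246 (24.6%) and in the 40S libraries alone by 8. The other 2630 had a mixture. The third-highest value was 10.0009 TPM for the transcript just inside the threshold and 9.99284 TPM for the one just outside. There were 642 transcripts from 10 to under 12 TPM by that value, and 904 from 8 to under 10 TPM. The transcripts kept held 89.4, 90.4 and 90.2% of all TPM in 80S replicates 1, 2 and 3, and 96.4, 95.6 and 90.5% in the 40S replicates. Among them, 338 matched another ID exactly in each of the 36 libraries, which left 4839 distinct profiles.

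WT 40S replicate 3 stood apart from the other 40S libraries before any test. On log2(TPM + 1) over the 5055 transcripts, its correlation was 0.531 with 40S replicate 1 and 0.503 with replicate 2, whereas replicates 1 and 2 correlated at 0.928. The 80S libraries correlated at 0.919, 0.835 and 0.834 among themselves. These points are transcripts and share their library, so the values are descriptions. Of the 5055 transcripts, 843 were listed at 0 in 40S replicate 3, against 33 and 76 in 40S replicates 1 and 2. The 80S libraries had 3, 18 and 31 such transcripts. The counts of calls in WT and the gradient shares of the called sets are given below with and without 40S replicate 3.

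The WT 80S fraction held a broad set of transcripts, and the 40S fraction was filled by few. At 1 TPM or more, 27732, 26217 and 24917 transcripts were detected in 80S replicates 1, 2 and 3, against 14712, 15949 and 8956 in 40S. The groups did not overlap, and the means were 26289 ± 1409 in 80S and 13206 ± 3732 in 40S (SD, n = 3 each). The 10 most abundant transcripts took 13.0, 12.9 and 14.5% of TPM in 80S, against 24.6, 31.2 and 33.0% in 40S. Every 40S library gave them a larger share than any 80S library. Reaching 50% of all TPM took 130, 122 and 148 transcripts in 80S, but 43, 36 and 24 in 40S.

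The same held for the 100 most abundant transcripts, which took 44.8, 46.1 and 43.3% of TPM in 80S and 70.0, 70.7 and 79.3% in 40S. Within cultures, 80S minus 40S averaged 13083 transcripts detected (SD 2847), -16.1 percentage points for the top 10 (SD 3.91) and -28.6 points for the top 100 (SD 6.40). All 3 cultures had the same direction for each measure. With 3 pairs, a two-sided exact permutation test cannot go below p = 0.25, which is the value each of 4 such tests gave, before and after adjustment. Without culture 3, the mean difference in transcripts detected was 11644.

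**Figure D1:**
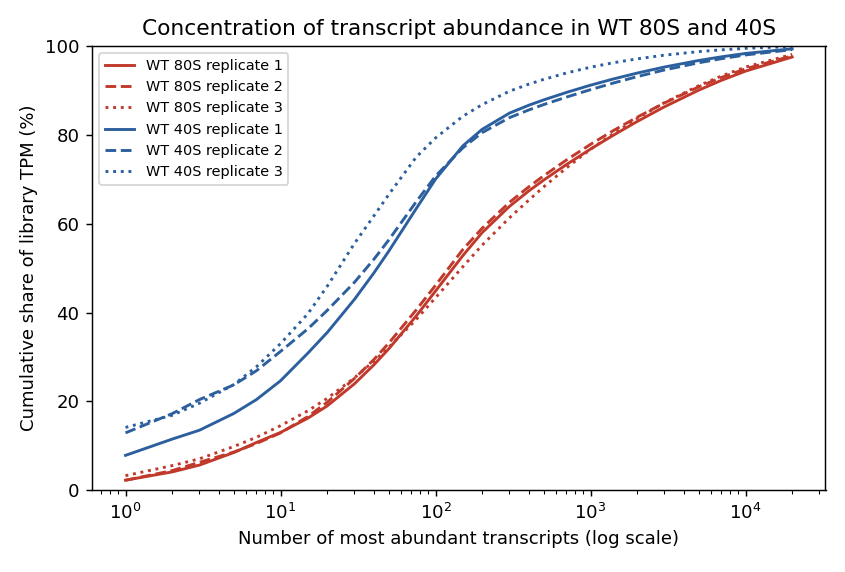
Cumulative share of library TPM (%, vertical axis) against the number of most abundant transcripts counted (log scale, horizontal axis), with 1 line per WT library, 80S in red and 40S in blue. All 3 lines of 80S run below those of 40S, at 44.8, 46.1 and 43.3% for the top 100 transcripts, against 70.0, 70.7 and 79.3% in 40S.

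The single most abundant transcript held 2.27, 2.25 and 3.28% of TPM in the 80S libraries, against 7.85, 12.9 and 14.1% in the 40S libraries. The same ID led 40S replicates 1 and 2. It had 18568, 22480 and 22632 TPM in 80S replicates 1, 2 and 3, against 78528, 129131 and 11405 TPM in 40S. In replicate 3 alone, its 80S value was above its 40S value. A different ID led 40S replicate 3, with 141391 TPM there, against 6864 and 1030 TPM in 40S replicates 1 and 2. Its values in 80S were 15415, 1404 and 3135 TPM.

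The identity of the abundant transcripts was steadier in 80S than in 40S. Of each library's 100 most abundant, 68 were shared by all 3 of the 80S libraries and 53 by all 3 of the 40S libraries. Between 40S replicates 1 and 2, 90 were shared, but replicate 3 shared 58 with replicate 1 and 55 with replicate 2. All 6 libraries had 40 in common. Leaving out 40S replicate 3, 60 were common to the remaining 5 libraries.

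Spike-in RNAs of the External RNA Controls Consortium (ERCC) took less of the TPM in 80S. They summed to 36.5, 31.9 and 18.5 TPM in 80S, against 380, 876 and 97.8 TPM in 40S, with no overlap. Those above 0 numbered 19, 23 and 15 in 80S, against 39, 44 and 15 in 40S. On the log2 scale the mean paired difference was -3.52 (SD 1.20). The sources used here do not give the amount of spike-in per sample. Its part in the transcript differences was not tested.

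Most transcripts were a larger share of the 80S fraction than of the 40S fraction. In limma's test on log2(TPM + 1), which used all 18 WT libraries with the culture as a block, 3637 of 5055 transcripts were higher in 80S (71.9% of those tested) and 42 were lower (0.831%) at a Benjamini-Hochberg adjusted p under 0.05, together 72.8%. The median difference, 80S minus 40S, was 1.75 over all transcripts, 1.98 over those higher and -2.22 over those lower. From the 10th to the 90th percentile, differences ran between 0.55 and 2.82. A positive difference was found for 4819 transcripts and a negative one for 236.

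The number called depended on how the spread was estimated. The median SD between replicates, on the log2 scale, was 0.395 in 80S and 1.17 in 40S, and it ran from 0.264 to 0.520 in the other WT fractions. The pooled spread of the 18 libraries was thus smaller than that of the 40S libraries. With the 6 compared libraries alone and the culture as a block, limma called 0 transcripts in either direction, although 2267 had an unadjusted p under 0.05. The 6 libraries without the block gave 679 higher and 10 lower. Leaving out 40S replicate 3 from that last fit gave 2888 higher and 64 lower.

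Without 40S replicate 3, the test on the other 17 WT libraries called 3200 transcripts higher (63.3%) and 64 lower (1.27%), and the median difference was 1.24. The values of single libraries gave a like picture without a model. In 3355 transcripts (66.4%) every 80S value was above every 40S value, and in 43 (0.851%) every 80S value was below. Among the called transcripts, 3231 of those higher (88.8%) and 35 of those lower (83.3%) had no overlap between the groups. All 3 cultures had a higher 80S value for 4042 transcripts and a lower one for 80 (1.58%), and the direction differed between cultures for 933.

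**Figure D2:**
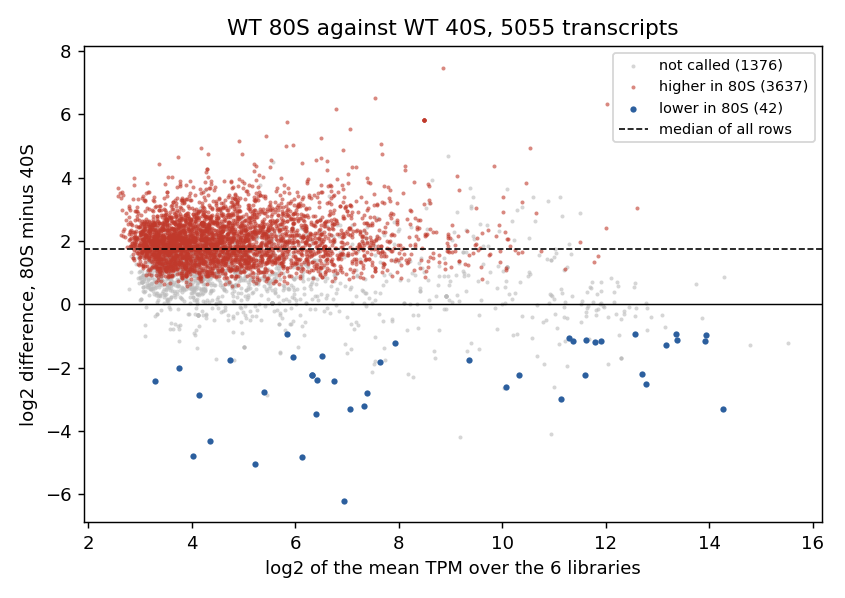
Difference between WT 80S and WT 40S (log2, 80S minus 40S, vertical axis) against the log2 of the mean TPM over the 6 libraries (horizontal axis), with 1 point per transcript. The 3637 transcripts called higher in 80S (red) surround the median of 1.75 (dashed line), while the 42 called lower (blue) lie between -6.20 and -0.93 and mostly at high levels (31 of them at 71.5 TPM or more).

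Cultures 1 and 2 gave closely similar differences, and culture 3 gave larger ones. The median of 80S minus 40S was 1.16 in culture 1, 1.13 in culture 2 and 2.81 in culture 3. The difference was positive for 89.4, 89.5 and 92.5% of transcripts. It reached 2-fold in favour of 80S for 57.2, 56.1 and 83.2%. Across the 5055 transcripts the differences of cultures 1 and 2 correlated at 0.625, while those of culture 3 correlated at 0.141 with culture 1 and 0.127 with culture 2. The direction of the median was thus shared by all 3 cultures, but the ranking of transcripts was shared mainly by cultures 1 and 2. In cultures 1 and 2 alike, 194 transcripts were higher in 80S and lower there in culture 3, and 176 had the opposite pattern.

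**Figure D3:**
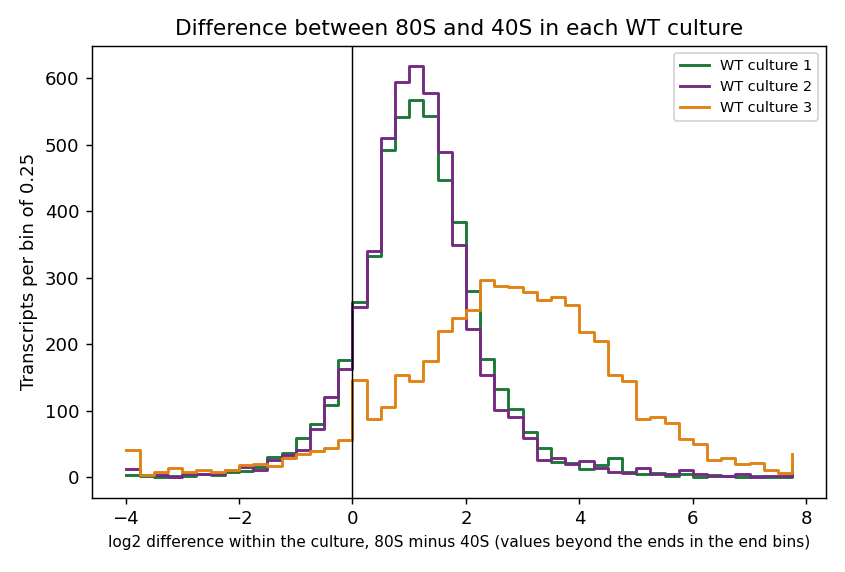
Number of transcripts per bin (vertical axis) by the log2 difference between 80S and 40S within a culture (80S minus 40S, horizontal axis, bins of 0.25), with 1 line for each WT culture. Cultures 1 and 2 centre on medians of 1.16 and 1.13, and culture 3 is broader with a median of 2.81.

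The way a transcript passed the filter fixes part of its call. Of the 1246 that reached 10 TPM only in 80S libraries, 1226 were called higher, and of the 8 that did so only in 40S libraries, 7 were called lower. Neither number supports a difference. Of the 2630 with a mixture, 1690 were called higher (64.3%) and 5 lower (0.19%). Those at 10 TPM in all 3 of the 80S libraries passed on their 80S values alone, so part of their call is fixed too. The counts without overlap between the groups share this limit. The 1171 transcripts at 10 TPM in all 6 libraries could have gone either way on that score. Among them, 721 were higher (61.6%) and 30 lower (2.56%), with a median of 1.20.

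The share called lower was largest among abundant transcripts. When the 5055 were divided into 5 equal bins by their mean over the 6 libraries, the top bin, from 71.5 to 47124 TPM, had 614 higher (60.7%) and 31 lower (3.07%). The lowest bin had 774 higher and 1 lower. Bins of the WT Input level, which the comparison did not use, gave 661 higher and 19 lower in the top bin, and 636 higher and 6 lower in the lowest. The 42 transcripts lower in 80S had a median of 61.0 TPM in 80S and 321 TPM in 40S. Their 40S means ran between 17.0 and 35739 TPM, with 19 at 1000 TPM or more. In 31 of the 42, replicate 3 had the highest of the 3 values in 40S.

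The called sets had opposite trends along the gradient, but a fall was not particular to the lower set. The 1376 transcripts not called took 66.1, 65.0 and 63.2% of TPM in 40S replicates 1, 2 and 3. They took 49.2, 49.7 and 46.1% in 80S and 29.8, 30.1 and 35.5% in Polysome2. In the fit with all WT libraries, the Input, disome and polysome values did not enter the difference of 80S and 40S. Without 40S replicate 3 they entered it through the culture block. Those libraries also shared in the spread and the culture block of the fits that chose the sets, so the shares are descriptions. The 42 transcripts lower in 80S took 6.89, 6.95 and 8.12% of TPM in Input replicates 1, 2 and 3. Their share was 17.8, 17.9 and 21.6% in 40S and 5.77, 6.07 and 6.87% in 80S. In Polysome1 it was 2.75, 2.88 and 3.95%, and in Polysome2 1.33, 1.16 and 2.74%. The Polysome2 shares were all below those of 80S and Input, without overlap. In the disome fraction the share was 3.02 and 3.13% in replicates 1 and 2 but 6.90% in replicate 3. Abundant transcripts weigh most in such sums. The median over the 42 of the mean TPM was 61.0 in 80S, 78.2 in the disome fraction, 27.9 in Polysome1 and 32.1 in Polysome2. All 42 had their highest mean, among the 5 gradient fractions, in 40S, as did 288 of all 5055 (5.70%). The 64 transcripts called lower without 40S replicate 3 took 15.9, 15.6 and 19.8% in Input. Their share was 32.2, 39.6 and 16.6% in 40S, but 10.4, 12.2 and 11.6% in 80S. Polysome2 had 2.43, 2.17 and 4.43%. Their Polysome2 shares too were all below those of 80S.

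The 3637 transcripts higher in 80S took 31.2, 32.0 and 29.0% of TPM in Input. They took 12.5, 12.7 and 5.70% in 40S and 34.4, 34.6 and 37.2% in 80S. In the disome fraction they took 49.8, 51.4 and 38.6%, in Polysome1 51.6, 51.6 and 45.0%, and in Polysome2 48.0, 48.2 and 42.3%. Every disome and polysome share was above every 80S share. The highest mean of the 5 gradient fractions was in 80S for 432 (11.9%), in the disome fraction for 870, in Polysome1 for 1034 and in Polysome2 for 1301 (35.8%). These shares were near those of all 5055, of which 14.4% peaked in 80S and 32.6% in Polysome2. The 3200 transcripts called higher without 40S replicate 3 took 29.3, 29.3 and 33.6% in 80S. Their share of Polysome1 was 45.2, 46.0 and 39.4%, and the lowest of the Polysome2 shares was 35.1%. For them too, every polysome share was above every 80S share.

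The 90 transcripts shared by the top 100 of 40S replicates 1 and 2 showed where the abundant 40S RNA went along the gradient. They took 35.6, 34.4 and 34.7% of TPM in Input, 66.6, 68.3 and 41.7% in 40S, and 37.9, 41.2 and 37.9% in 80S. In Polysome2 they took 16.6, 16.7 and 22.0%. Replicate 3 was not used in choosing them, and its 40S share was also above its 80S share. Of the 90, 3 were called higher in 80S and 15 lower, against 71.9 and 0.831% of all transcripts tested. High 40S values chose these 90, so the counts are a description and support no difference. Their median difference was -0.75 in culture 1, -0.30 in culture 2 and 1.08 in culture 3. Of the 90, 55 peaked in 40S and 19 in 80S.

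**Figure D4:**
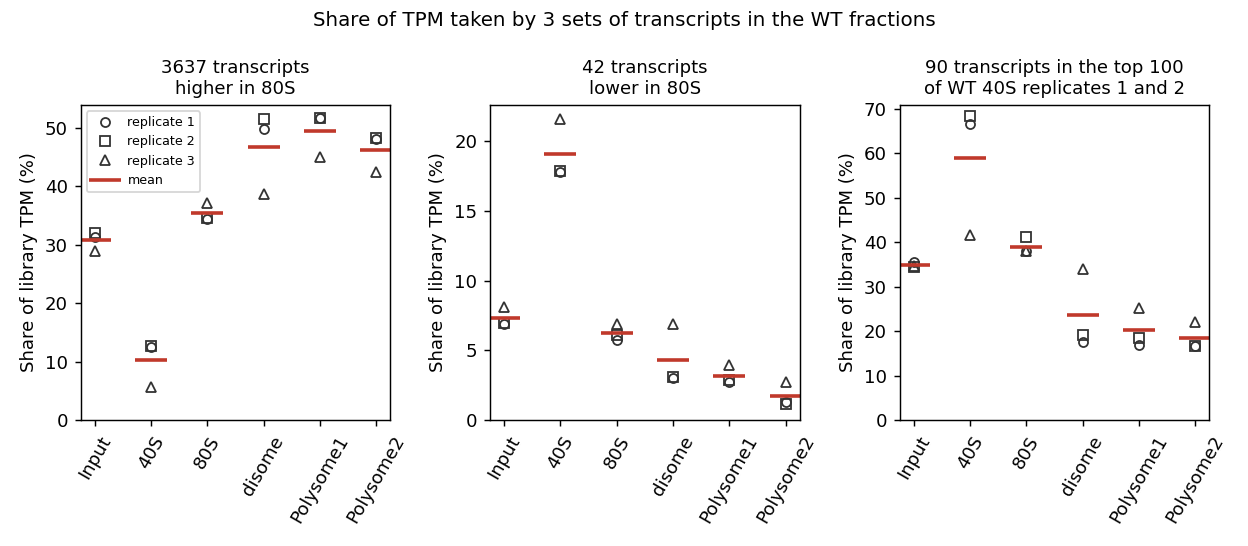
Share of library TPM (%, vertical axis) of 3 sets of transcripts in the 6 WT fractions (horizontal axis, from Input to Polysome2), with a symbol for each replicate and a red line at the mean. The 3637 transcripts higher in 80S take 38.6% or more in every disome and polysome library, and the 42 lower in 80S fall to 2.74% or less in Polysome2.

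Because a few transcripts filled the 40S libraries, the comparison was repeated relative to the typical transcript. Each library was divided by its median ratio to the geometric mean over 3881 transcripts above 0 in all WT libraries. The size factors were 1.12, 1.19 and 1.33 in 80S and 0.478, 0.510 and 0.161 in 40S. After this scaling the median difference was 0.19, and limma called 255 transcripts higher in 80S (5.04% of those tested) and 313 lower (6.19%). The lower share of all calls was thus 55.1%, against 1.14% in TPM. It was 54.4% after quantile normalization. Both scalings bring the typical difference near 0, so a more even split of calls was largely fixed in advance. Scaling to the ERCC total instead called 4917 of the 5055 transcripts higher and 0 lower, with a median difference of 4.88. The direction of most transcripts thus holds for their share of the fraction. It is not shown for their amount, since the amount of spike-in per sample is not given.

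Of the 42 transcripts lower in TPM, 41 were also lower relative to the median. The scaling moved the median difference from 1.75 down to 0.19, so that overlap was largely fixed in advance and supports no difference. Without 40S replicate 3, the scaled values gave 564 higher (11.2%) and 607 lower (12%), with a median of 0.01. Of the sets called with all libraries, 234 of the 255 higher and 276 of the 313 lower were called again. The 313 lower transcripts took 30.3 ± 1.62% of TPM in 80S and 53.8 ± 7.41% in 40S (SD, n = 3 each). In fractions not compared they took 27.0 ± 0.172% in Input, 20.3 ± 8.42% in the disome fraction, 18.4 ± 3.63% in Polysome1 and 14.7 ± 4.62% in Polysome2. These shares are sums, in which abundant transcripts weigh most. The median transcript of the 313 did not fall steadily. Its mean TPM was 80.4 in 40S, 67.9 in 80S, 80.6 in the disome fraction, 71.3 in Polysome1 and 50.4 in Polysome2. The 255 higher transcripts took 3.17 ± 0.305% in 80S and 0.277 ± 0.156% in 40S. They took 2.47 ± 0.690% in Input and 4.03 ± 1.26% in Polysome2.

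Some transcripts were present in WT 80S and almost absent from WT 40S, or the reverse. There were 16 with at least 10 TPM in all 3 of the 80S libraries and under 1 TPM in all 3 of the 40S libraries, and 4 of them were listed at 0 in every 40S library. Their median 80S mean was 14.7 TPM. They were not limited to 80S among the WT fractions. At 1 TPM or more in all 3 libraries, 11 of the 16 were found in WT Input, 13 in the disome fraction, 11 in Polysome1 and 9 in Polysome2. In the KO, 1 of the 16 reached 10 TPM in all 80S libraries, and 6 stayed under 1 TPM in all 40S libraries. The opposite pattern was met by 1 transcript, with 26.4, 11.6 and 59.2 TPM in 40S and values near 0 in 80S. In the KO its pattern was turned, with 10.9, 22.2 and 8.89 TPM in 80S and values near 0 in 40S. It was singled out after its values were seen.

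The transcripts named by ID were the 2 with the largest difference in each direction among those that met a rule. They had to be called, at 50 TPM or more in the higher group and moving the same way in all 3 cultures. Their 3 WT 80S values also had to be free of overlap with their 3 WT 40S values. This rule was met by 1070 transcripts that rose and 29 that fell. The files give neither the gene nor the position of these IDs. Each of the pair that rose had 10 TPM or more in all 3 of the 80S libraries and in 1 of the 40S libraries. Their 80S values were thus enough to pass the row filter. The pair that fell passed it through the 40S libraries alone. The filter therefore fixes part of the call of all 4. ENST00000380633.1 had 537, 544 and 1614 TPM in 80S replicates 1, 2 and 3, against 3.44e-07, 82.0 and 0 TPM in 40S. All 80S values were above all 40S values, as the rule required. The log2 difference was 7.48 (SE 1.44, limma adjusted p = 0.000941). ENST00000619869.1 had 398, 271 and 415 TPM in 80S, against 33.0, 0.742 and 0 TPM in 40S. Here too the groups did not overlap, by the same rule, and the log2 difference was 6.51 (SE 1.85, limma adjusted p = 0.00819).

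Among those lower, ENST00000383858.1 had 9.08, 0 and 0 TPM in 80S, against 33.2, 417 and 276 TPM in 40S. The lowest 40S value was above the highest 80S value, as the rule required, and the log2 difference was -6.20 (SE 2.03, limma adjusted p = 0.0163). ENST00000399387.8 had 0.112, 0.406 and 2.29 TPM in 80S, against 30.1, 37.9 and 154 TPM in 40S. Its log2 difference was -5.05 (SE 0.68, limma adjusted p = 0.000139), and it was listed at 0 in every WT Input and Polysome2 library. With the 6 libraries alone and the culture as a block, all 4 had an adjusted p of 0.0902 in limma. Without 40S replicate 3, all 4 kept their call, at log2 differences of 6.44, 5.62, -6.04 and -4.53. The call of ENST00000383858.1 ended without 40S replicate 2 (limma adjusted p = 0.0697), and those of ENST00000619869.1 (0.0519) and ENST00000383858.1 (0.153) ended without culture 2. The call of ENST00000619869.1 also ended under median-of-ratios scaling (0.0701), quantile normalization (0.0900), array weights (0.0659) and no row filter (0.0580). That of ENST00000383858.1 ended under array weights (0.0656), no row filter (0.0984) and ERCC scaling (0.117), and that of ENST00000399387.8 under ERCC scaling (0.316).

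**Figure D5:**
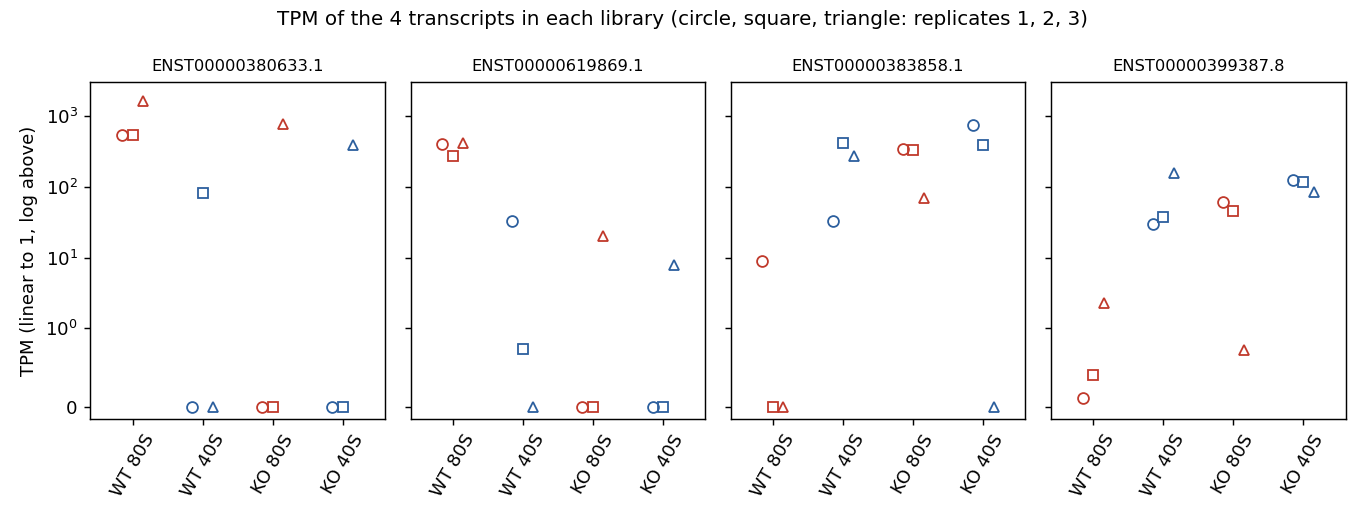
TPM of 4 transcripts (vertical axis, linear up to 1 and log above) in the WT 80S, WT 40S, KO 80S and KO 40S libraries, with a circle, square and triangle for replicates 1, 2 and 3. In WT the 80S and 40S values of each transcript do not overlap, which the choice of the 4 transcripts required. In KO only ENST00000399387.8, with 60.1, 46.2 and 0.721 TPM in 80S against 125, 116 and 85.0 TPM in 40S, keeps its groups apart.

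The contrast of 80S and 40S was also measured in the KO cultures, whose libraries had no part in the WT comparison. Of the 4 IDs, 1 was called there. ENST00000380633.1 had 0, 0 and 776 TPM in KO 80S, against 0, 0 and 394 TPM in KO 40S. ENST00000619869.1 had 0, 0 and 20.4 TPM in KO 80S, against 0, 0 and 7.94 TPM in KO 40S. Both were thus listed at 0 in all 4 libraries of KO cultures 1 and 2. ENST00000383858.1 had 342, 333 and 68.6 TPM in KO 80S, against 737, 391 and 0.00187 TPM in KO 40S. The KO log2 differences of these IDs were 0.33, 0.42 and 1.59, of which the last has the opposite sign to WT, and none passed the test. For ENST00000399387.8 the KO log2 difference was -2.66 (SE 0.81, limma adjusted p = 0.0462). The WT minus KO difference of these contrasts passed the test for none of the 4, with limma adjusted p-values of 0.133, 0.190, 0.189 and 0.200. Over all 5055 transcripts it passed for 5 (0.0989%), of which 3 had a larger difference in WT (0.0593%) and 2 a smaller one (0.0396%).

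Over the same 5055 transcripts, KO 80S against KO 40S had a median log2 difference of 0.81, with 463 higher (9.16%) and 4 lower (0.0791%) in limma. The KO medians were 0.98, 0.51 and 0.81 by culture. Of the 463, 426 were also called higher in WT, which is 92.0% of the KO list and 11.7% of the WT list of 3637. WT calls take 71.9% of all transcripts tested, so much of that overlap is fixed by the length of the WT list. Of the transcripts higher in WT, 89.1% had a positive KO difference, which is near the 4341 of all 5055 and the 78.8% of those not called in WT. Of the 42 lower in WT, 26 had a negative KO difference and 16 a positive one, with 3 called lower and 1 called higher. Those 42 took 10.8, 7.97 and 7.37% of TPM in KO 80S replicates 1, 2 and 3, against 41.0, 24.2 and 19.5% in KO 40S. The 64 called without WT 40S replicate 3 took 11.3, 8.78 and 12.4% in KO 80S, against 44.1, 25.8 and 45.7% in KO 40S. The 90 abundant 40S transcripts took 24.3, 22.3 and 34.6% in KO 80S, against 53.1, 41.5 and 62.2% in KO 40S. For these 3 sets every KO 40S share was above every KO 80S share.

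The KO count moved with 1 library and with each culture. All calls together numbered 467, and there were 1467 without KO disome replicate 1, 785 without culture 1, 35 without culture 2 and 1 without culture 3. Across transcripts, the mean difference of WT cultures 1 and 2 correlated with the KO difference at 0.481, and that of WT culture 3 at -0.018. Relative to the median transcript, the KO had 270 higher (5.34%) and 123 lower (2.43%). Of the 255 WT transcripts higher on this scale, 41 were called higher (16.1%) and 4 lower in the knockout, where the median difference was 0.76. Of the 313 lower, 38 were lower (12.1%) and 3 higher, with a median of -0.53. Without WT 40S replicate 3, 94 of 564 higher (16.7%) and 43 of 607 lower (7.08%) were called the same way in KO.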

How the data were processed

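RNA from 36 polysome-profiling samples of HUES6 cells was sequenced, and this comparison used the 3 WT 80S and 3 WT 40S libraries. The deposited table gives TPM per Ensembl transcript. The submitters' processing notes name kallisto, sleuth and the build hg19, and no versions. Sequencing depth cannot be read from TPM and is unknown, so counting errors could not be computed. Zeros are listed estimates, not counts. No column was left unused (0). Groups and culture numbers come from the sample labels.

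Values were taken as log2(TPM + 1), so differences of low transcripts are understated. The main test was limma 3.58.1 in R 4.3.3, with an intensity trend, 6 fraction means and the culture as a block over 18 WT libraries (10 residual degrees of freedom). P-values were adjusted by Benjamini-Hochberg over 5055 transcripts. KO was fitted alike, and the WT minus KO difference was fitted over 36 libraries. The block follows the labels, in which a number names a culture. The 80S and 40S deviations from their group means correlated at 0.259, 0.322 and 0.394 within cultures 1, 2 and 3, but 80S of culture 2 also correlated at 0.342 with 40S of culture 1. The scripts were tested on simulated data in which a transcript had the same spread in every WT library. That test did not cover the wider spread of the 40S libraries.

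The 4 IDs were chosen by the rule given with them. Members and lists were chosen with earlier results of these data known. The 22 gene lists and the cell type markers need gene names and were not used here. Other scalings, pseudocounts, filters, weights and left-out libraries were tried. Python 3.11.15 with pandas 2.3.3 and scipy 1.17.1 made the summaries.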

Additional observations from a re-analysis of the deposited data

Results flagged for a closer look

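The contrast of 80S against 40S differed between WT and KO for 5 of 5055 transcripts (0.0989%), by limma's test of the difference itself over 36 libraries. The difference WT minus KO was above 0 for 3 of them and below 0 for 2. An unadjusted p under 0.05 was found for 996, and the median difference WT minus KO was 0.85 on the log2 scale. The number called was 2 without WT 40S replicate 3, 0 without culture 1, 377 without WT 40S replicate 2 and 226 without KO disome replicate 1.

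Of the 3 above 0, all were called higher in WT 80S than in WT 40S, with log2 differences of 2.30, 3.12 and 3.33, and had KO differences of -0.67, -0.42 and -0.64 that did not pass the test. Each of these reached 10 TPM in all 3 of the WT 80S libraries, which was enough to pass the row filter. The filter therefore fixes part of the WT call of all 3. The transcript with a WT difference of 3.12 reached 10 TPM in WT 80S libraries alone. Of the 2 below 0, 1 was the transcript seen in WT 40S and in KO 80S, with a log2 difference of -4.78 in WT and 3.81 in KO. It passed the row filter through WT 40S libraries alone, which likewise fixes part of its WT call. The other was at 42.1, 30.6 and 21.6 TPM in WT 80S, against 25.3, 14.0 and 188 TPM in WT 40S. In WT cultures 1 and 2 it was higher in 80S, and in culture 3 it was lower. Its KO values were 46.6, 33.7 and 45.7 TPM in 80S, against 1.24, 0.586 and 0 TPM in 40S.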

How the results depend on the processing

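The median difference and the 4 named transcripts kept their sign under every alternative tried. But the balance of calls turned from mostly higher to more lower than higher under median-of-ratios scaling and quantile normalization. Both bring the typical difference near 0, so much of that turn was fixed in advance. With all 36 libraries and the replicate block the WT counts were 3602 higher and 40 lower, and without the block 3431 and 32. The block moved the KO calls (38 without it) and the WT minus KO calls (0 without it). The fit on the 6 libraries with the block, which was planned, called 0 and 0. Without the block it called 679 and 10, or 2888 higher and 64 lower without 40S replicate 3. The fits on the 6 libraries without the block were chosen after seeing the data. So were those without KO disome replicate 1 (1467 KO calls, 226 WT minus KO) and the scaled fit without 40S replicate 3.

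The calls higher in WT 80S were 12820 at a filter of 1 TPM, 9251 with no filter and 4917 under ERCC scaling. They were 255 under median-of-ratios scaling, 564 when that also lacked 40S replicate 3, and 283 with quantiles made equal. Those lower were 81 with array weights, 117 at 1 TPM, 68 at a mean of 10 TPM, 130 with no filter, 313 and 607 under median-of-ratios scaling, 338 with equal quantiles and 0 under ERCC scaling. The median difference was 0.0367 with equal quantiles, 0.19 and 0.0116 under median-of-ratios scaling and 4.88 under ERCC scaling.

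The KO calls numbered 1259 with array weights, 888 at 1 TPM, 78 with no filter, 191 with equal quantiles and 3906 under ERCC scaling. The WT minus KO calls numbered 316 with array weights, 2 and 254 at pseudocounts of 0.1 and 5, 20 at 1 TPM, 10 with no filter, 111 under median-of-ratios scaling, 200 with equal quantiles and 1502 under ERCC scaling. The estimation of array weights stopped before its tolerance was reached.

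Leaving out 1 culture or 1 WT 40S library gave between 2605 and 3824 higher, 25 and 79 lower, and medians from 1.14 to 2.05. The KO calls ran from 1 to 785 and the WT minus KO calls from 0 to 377. The causes of these changes were not tested. Removing mitochondrial transcripts, sums per gene and gene list medians were not run, since they need gene names.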
